A study of Mus musculus with 6 samples.

Results

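Immediate-early genes are switched on within minutes of a stimulus, from transcription factors that already sit in the cell, and many of their short-lived products are transcription factors themselves. A well-studied route runs from growth factor receptors through ERK to serum response factor (SRF), which binds the CArG box, and other routes use CREB or NF-kB. The genes followed here are 10 immediate-early genes outside the Fos and Jun families. They are the EGR factors Egr1, Egr2 and Egr3, the Krüppel-like factors Klf4 and Klf6, Myc, the immediate-early response genes Ier2 and Ier3, the mRNA decay factor Zfp36 and the phosphatase regulator Ppp1r15a. They were taken by symbol from the array annotation, and all 10 were found, on 12 of the 22206 probe sets tested. Egr3 had 3 probe sets, of which the one with the highest mean over all arrays stood for the gene. No filter on low values was applied, so every gene was tested.

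The cells were ER-negative luminal cells of the mouse mammary gland, the luminal population that lacks oestrogen receptor and holds the progenitors of milk-producing alveoli. The Sox9 KO group was 3 MMTV-iCre; Sox9Fl/Fl females, and the WT group was 3 Sox9Fl/Fl females without Cre, all 8 to 12 weeks old, in diestrus and on a mixed C57BL/6J x FVB/NJ background. Both groups thus carried the floxed Sox9 alleles, and each gland was made into a suspension and sorted separately for cells that were Lin-, high in EpCAM, low in CD49f and without Sca1. In the Sox9 KO animals the cells were further gated for ECFP, a reporter carried with the Cre transgene, because the MMTV promoter drives Cre in only part of the mammary epithelium. Sox9 deletion, Cre and the ECFP gate therefore cannot be told apart. The glands of both groups were digested with collagenase, trypsin and dispase before sorting, and immediate-early genes are known to respond to such handling. RNA was measured on Affymetrix Clariom S Pico arrays, which give 1 log2 signal for each probe set, where a step of 1 is a doubling. In sorted bulk cells, fewer cells that express a gene and less RNA per cell cannot be told apart.

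Sox9 itself fell in Sox9 KO cells, to 6.73, 7.84 and 7.51, against 11.60, 11.54 and 11.47 in WT cells. This was a signal at least 11.6-fold lower once each Sox9 KO array was raised to the 95th percentile of its own negative controls, with an adjusted p of 0.00867 in limma. That percentile lay between 7.75 and 8.58 on the 6 arrays and serves below as the background bar. Of 10 markers of ER-negative luminal cells, 9 lay above the bar on every array. The mean level of the 10 was 11.43 to 11.60 in Sox9 KO and 11.73 to 11.79 in WT. In Sox9 KO 6 of them were lower and 4 higher, with a median log2 difference of -0.17. Lower without overlap were 4, where 7.3% of all probe sets were, and 0 passed the adjusted threshold. All endothelial, myeloid and T and B cell markers measured lay below the bar on every array. Basal markers had a mean level of 7.18 to 7.55 in Sox9 KO and 6.07 to 6.86 in WT, and 7 of 8 were higher in Sox9 KO. This mean was carried by Krt14 (2.57), Trp63 (1.99) and Krt17 (1.15), as log2 differences. These 3 lay higher without overlap between groups, where 6.85% of all probe sets did. Smaller differences were found for Oxtr (0.54), Krt5 (0.27), Acta2 (0.10), Cnn1 (0.06) and Myh11 (-0.03). None of the 8 passed the adjusted threshold or was above the bar on all arrays. The mean level of ER-positive luminal markers was 5.78 to 6.02 in Sox9 KO and 5.81 to 7.39 in WT, highest on WT replicate 3, and that of fibroblast markers was 5.68 to 7.32 in Sox9 KO, highest on Sox9 KO replicate 3, and 5.77 to 6.41 in WT. Sox9 KO replicate 1 stood apart on replication and mitosis genes, which is described below with the values it touches. The part of these differences in the results was not tested.

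Promoter sequences are shown first, because the 10 genes are grouped here by how they are induced and the stretches below hold the letters of well-known inducible sites. Of the 10 genes, 6 had an entry in the RefSeq promoter table of GRCm38.p6 (Egr2, Ier3, Klf4, Klf6, Zfp36 and Ppp1r15a). The other 4 were Egr1, Egr3, Ier2 and Myc. In each entry the 250 bases before the start site were searched on both strands for the CArG box, the NF-kB site, the CRE TGACGTCA, the AP-1 site TGANTCA, the EGR site GCGNGGGCG, the TATA box TATAAA, the E-box CACGTG and the SOX core ACAAT. Each stretch ends at the base before the start site, is written 5′ to 3′ on the strand of the gene, and has the matches in capitals. It covers chr7:28379229-28379348 on the minus strand for Zfp36, chr10:67537749-67537868 on the plus strand for Egr2, chr7:45526269-45526388 on the minus strand for Ppp1r15a, chr17:35821593-35821712 on the plus strand for Ier3, chr4:55532476-55532705 on the minus strand for Klf4 and chr13:5861369-5861488 on the plus strand for Klf6.
Zfp36: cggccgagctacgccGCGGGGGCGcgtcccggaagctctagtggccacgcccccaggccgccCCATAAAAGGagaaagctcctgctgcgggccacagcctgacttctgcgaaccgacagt
Egr2: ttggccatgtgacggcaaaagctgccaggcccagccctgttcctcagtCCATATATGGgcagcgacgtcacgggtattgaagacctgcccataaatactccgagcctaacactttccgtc
Ppp1r15a: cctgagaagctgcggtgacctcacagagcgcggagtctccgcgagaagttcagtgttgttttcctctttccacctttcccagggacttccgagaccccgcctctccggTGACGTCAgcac
Ier3: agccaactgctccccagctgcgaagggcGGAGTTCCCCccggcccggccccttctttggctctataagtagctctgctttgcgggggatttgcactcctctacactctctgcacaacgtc
Klf4: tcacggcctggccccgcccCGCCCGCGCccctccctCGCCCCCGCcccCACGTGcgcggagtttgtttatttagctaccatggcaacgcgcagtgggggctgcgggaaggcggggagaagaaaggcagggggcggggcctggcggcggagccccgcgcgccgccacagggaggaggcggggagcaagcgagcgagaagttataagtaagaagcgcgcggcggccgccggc
Klf6: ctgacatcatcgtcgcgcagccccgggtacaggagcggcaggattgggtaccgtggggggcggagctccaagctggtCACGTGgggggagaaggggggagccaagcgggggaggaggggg

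A CArG box stood 58 to 49 bases before the start of Zfp36 and 72 to 63 bases before the start of Egr2 that is shown. Egr2 has 5 start sites in the table. The CArG box was found in 1.47% of all 32851 windows of the same length. Zfp36 also held an EGR site, the sequence that the EGR proteins bind. Klf4 held 2 of them on the strand opposite to the gene, and 4.7% of all windows held at least 1. The CRE, which CREB binds, stood 12 to 5 bases before the start of Ppp1r15a and in 1.55% of all windows. The NF-kB site was found in Ier3, on the minus strand (7.25% of all windows), and the E-box, the site of MYC and MAX, in Klf4 and Klf6 (6.02%). Egr2 held both of these only at another start, which is not shown. The AP-1 site (6.75%), the TATA box (12.4%) and the SOX core (27.7%) were found in 0 of the 6 genes. A match is a string of letters and not a measured site of binding, and no binding was measured here.

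Of the 10 genes, 8 were lower in Sox9 KO cells than in WT cells, with a median difference of -0.53 on the log2 scale, where the median over all 22206 probe sets was 0.01 and 48.3% of them were lower. The median was -0.33 without Sox9 KO replicate 1. Klf4, Klf6, Myc, Zfp36 and Ppp1r15a lay lower on every Sox9 KO array than on any WT array. That is 5 genes, where 7.3% of all probe sets did so, and 0 of the 10 lay higher without overlap, where 6.85% of all did. The same 5 had an unadjusted p under 0.05 in limma, as had 4.99% of all probe sets in that direction. Fewer had one without Sox9 KO replicate 1 (3 genes, 4.05% of all probe sets), Sox9 KO replicate 2 (3 genes, 4.53%), WT replicate 2 (2 genes, 3.27%) or WT replicate 3 (4 genes, 4.51%). With the methods' t-test, unadjusted, only Zfp36 of the 10 did, where 4.13% of all probe sets were lower at that level. None of the 10 passed an adjusted p of 0.05 over all probe sets, which 2 probe sets or 0.00901% did (Sox9 and Idh1, an isocitrate dehydrogenase named only for its place in this count), and none passed the study's rule of over 2-fold with an unadjusted p under 0.05, which 1.14% did. An exact permutation test of 3 against 3 arrays gives p = 0.1 for each of the 5, the smallest it can give. The groups overlapped for Egr1, Egr2, Egr3, Ier2 and Ier3.

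**Figure D1:**
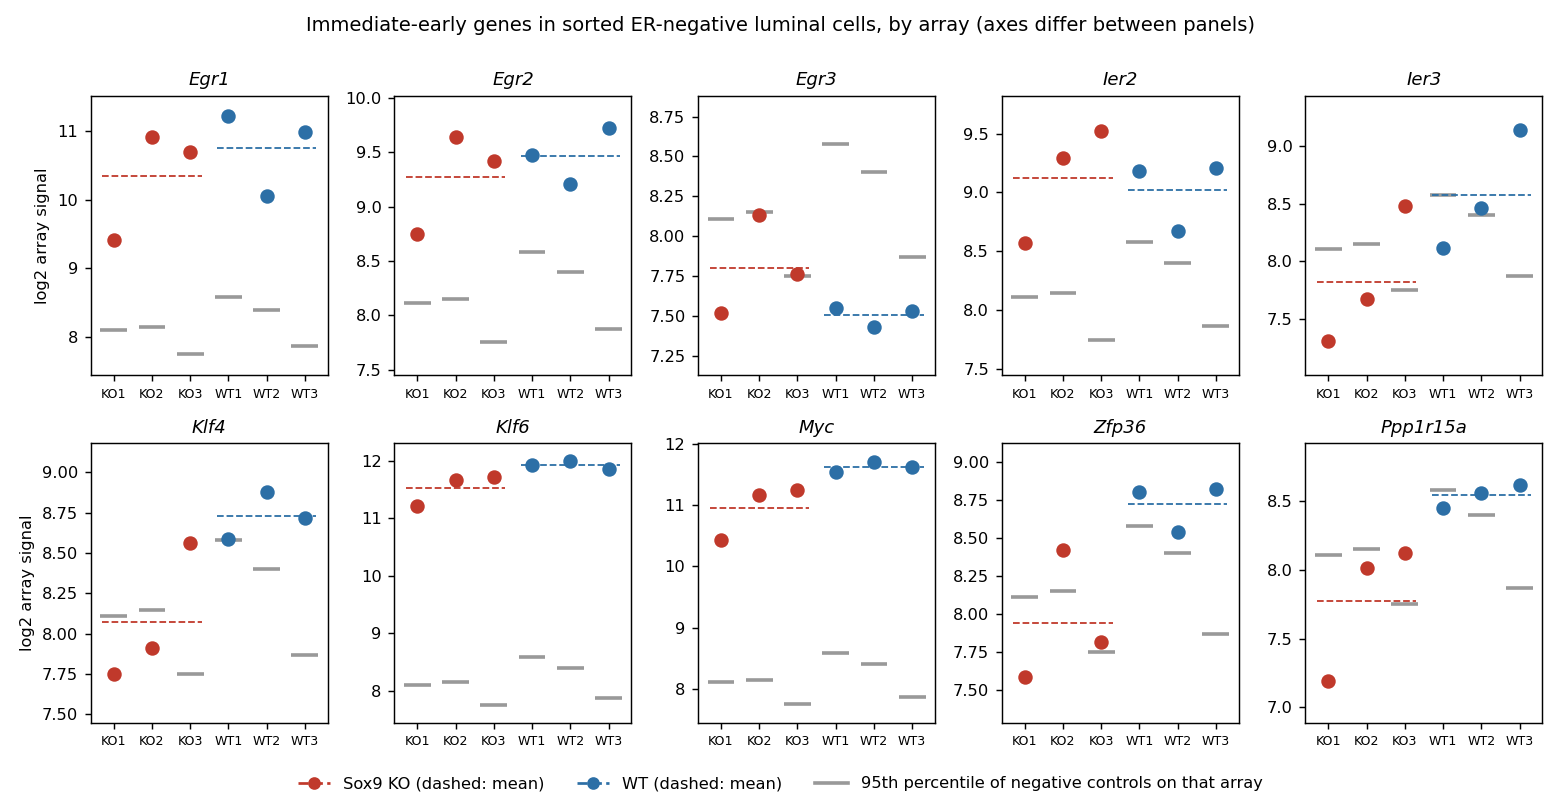
Log2 array signal of the 10 genes on each of the 6 arrays (red, Sox9 KO; blue, WT; dashed lines, group means of 3 arrays; grey bars, the background bar of that array), with an axis of its own for each gene. For Klf4, Klf6, Myc, Zfp36 and Ppp1r15a all red points lie below all blue points, with the smallest gap for Klf4 (0.03) and the widest for Ppp1r15a (0.33).

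The EGR genes encode zinc-finger transcription factors that carry a growth factor signal on to later genes, and Egr1 is the founding member. The Egr1 gene lies at chr18:34861207-34864956 in GRCm38.p6, the build of all gene positions below, while the positions of the array probes are not known here. Egr1 had signals of 9.42, 10.91 and 10.69 in Sox9 KO cells and 11.21, 10.06 and 10.98 in WT cells. Only Sox9 KO replicate 1 lay below the WT range, and WT replicate 2 lay below the other 2 Sox9 KO arrays. The difference was -0.41 (SE 0.44, 95% interval -1.42 to 0.60), with an adjusted p of 0.817 in limma. This interval holds both a fall of more than 2-fold and a moderate rise, so the arrays did not settle the direction of Egr1.

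Egr2 (chr10:67534469-67542188), best known for its role in myelinating Schwann cells, had signals of 8.75, 9.64 and 9.42 in Sox9 KO cells and 9.48, 9.21 and 9.72 in WT cells. Its order over the arrays was close to that of Egr1, with Sox9 KO replicate 1 lowest and WT replicate 2 next. The difference was -0.20 (SE 0.25, 95% interval -0.78 to 0.38), with an adjusted p of 0.851 in limma. Egr1 and Egr2 lay above the background bar on all 6 arrays.

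Egr3 (chr14:70077317-70082613) was near background. Its probe set read 7.52, 8.13 and 7.76 in Sox9 KO cells and 7.55, 7.43 and 7.53 in WT cells, and lay above the bar on 1 Sox9 KO array and 0 WT arrays. The difference was 0.30 (SE 0.18, adjusted p 0.652 in limma), and with this signal no fold is given. The other 2 probe sets of Egr3 had differences of 0.23 and 0.17 (SE 0.24 each), with overlapping groups and 0 and 1 arrays above the bar. All 3 probe sets pointed higher, each by less than 2 standard errors.

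NAB1 and NAB2 bind the EGR proteins and hold back their activity, and Nab2 is itself an EGR target. Nab2 had signals of 8.76, 9.12 and 8.09 in Sox9 KO cells and 7.87, 8.22 and 8.08 in WT cells, a difference of 0.60 (SE 0.26, adjusted p 0.537 in limma). Nab1 differed by -0.28 (SE 0.19). The 2 co-repressors thus lay on opposite sides of 0, and the groups overlapped for both.

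The Krüppel-like factors are zinc-finger factors that bind GC-rich promoters. Klf4 (chr4:55527137-55532475) acts in the differentiation of many epithelia and is one of the factors used to reprogramme cells to pluripotency. Its signal was 7.75, 7.91 and 8.56 in Sox9 KO cells and 8.59, 8.88 and 8.72 in WT cells. The groups did not overlap, but Sox9 KO replicate 3 lay only 0.03 under the lowest WT array. The difference was -0.66 (SE 0.22, 95% interval -1.17 to -0.14), or 1.58-fold lower (adjusted p 0.430 in limma). Klf4 was above the bar on 1 of 3 Sox9 KO arrays and on 3 of 3 WT arrays. Low signals on such arrays are pressed towards background, which makes the fold of a dim gene too small.

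Klf6 (chr13:5861489-5870393), a family member induced by injury and by serum, was far above the bar on every array. It read 11.21, 11.66 and 11.72 in Sox9 KO cells and 11.92, 12 and 11.85 in WT cells. All 3 Sox9 KO arrays lay below all 3 WT arrays, by at least 0.13. The difference of -0.39 (SE 0.17, adjusted p 0.536 in limma) was the smallest of the 5 genes whose groups did not overlap. Its 95% interval of -0.78 to -0.003 reached nearly to 0.

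The other 15 KLF genes did not move to one side. Of these, 7 were lower and 8 higher, with a median of 0.03 (-0.02 without Sox9 KO replicate 1), and 1 in each direction had an unadjusted p under 0.05. Klf10, a TGF-beta-inducible factor, was the lower one (-0.47, SE 0.18), without overlap between groups. Klf3, a repressor, was the higher one (0.42, SE 0.18), and lay above the bar on no WT array. Klf15, a factor of metabolic genes, differed by 0.37 (SE 0.23) and lay below the bar on all arrays. None of the 15 passed the adjusted threshold, and 8 lay below the bar on all 6 arrays.

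Myc (chr15:61985341-61990361) encodes the transcription factor that pairs with MAX on E-boxes and drives ribosome production and growth. Its signal was 10.43, 11.17 and 11.24 in Sox9 KO cells and 11.54, 11.71 and 11.63 in WT cells. The WT arrays lay within a narrow band (11.63 ± 0.09, SD, n = 3), and every Sox9 KO array lay at least 0.30 below it. The Sox9 KO mean was 10.95 ± 0.45 (SD, n = 3), and the difference was -0.68 (SE 0.22, 95% interval -1.20 to -0.16), a 1.60-fold lower signal. The adjusted p was 0.416 in limma. Of the 5 genes without overlap, Myc and Klf6 were the ones above the bar on all 6 arrays.

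Other genes of the MYC and MAX network, the partners and antagonists that compete for MAX, had a median on the other side of 0. Of 11 measured, 3 were lower, 7 higher and 1 at 0, with a median of 0.24, and 0 passed the adjusted threshold. However, 4 of the 11 lay below the bar on all 6 arrays, and these 4 were all among the 7 higher genes. Mxi1, an antagonist that takes MAX away from MYC, read 9.22, 9.06 and 8.31 in Sox9 KO cells and 7.75, 7.57 and 8.20 in WT cells. Its groups did not overlap, with a difference of 1.02 (SE 0.27, adjusted p 0.332 in limma), and it was above the bar on 3 of 3 Sox9 KO arrays and 1 of 3 WT arrays. Mga, another MAX partner that represses, differed by -0.51 (SE 0.17), and Mycl, a relative of Myc that lay below the bar on all arrays, by 0.53 (SE 0.22).

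MYC targets of ribosome synthesis and growth lay on both sides of 0, and the medians of the arrays overlapped between genotypes. Of 14 measured of 16 listed, 9 were lower and 5 higher, with a median of -0.15 and 0 past the adjusted threshold. Ddx21, a nucleolar RNA helicase, read 9.45, 9.03 and 9.27 in Sox9 KO cells and 9.77, 10.18 and 9.79 in WT cells. Its difference was -0.66 (SE 0.18, adjusted p 0.334 in limma), and it was the 1 gene of the list with an unadjusted p under 0.05. Rrp12 and Nop58, which act in ribosome assembly, differed by -0.45 (SE 0.21) and -0.65 (SE 0.31).

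Ier2 and Ier3 share a name but not a protein family. Ier2 (chr8:84661331-84662852), a nuclear protein induced by growth factors, had signals of 8.57, 9.29 and 9.52 in Sox9 KO cells and 9.18, 8.67 and 9.21 in WT cells. The highest and the lowest of the 6 arrays were both Sox9 KO arrays. The difference was 0.11 (SE 0.27, 95% interval -0.52 to 0.73), with an adjusted p of 0.941 in limma.

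Ier3 (chr17:35821713-35822911), a regulator of cell survival and of ERK signalling, read 7.31, 7.67 and 8.48 in Sox9 KO cells and 8.12, 8.46 and 9.14 in WT cells. It had one of the larger mean differences, -0.75, but also a wide spread (SE 0.35, 95% interval -1.57 to 0.06), and Sox9 KO replicate 3 lay within the WT range. The adjusted p was 0.568 in limma. Leaving out Sox9 KO replicate 1 gave a difference of -0.50, and leaving out WT replicate 3 gave -0.47. Ier3 was above the bar on 1 Sox9 KO array and 2 WT arrays.

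Zfp36 (chr7:28376784-28379228), or tristetraprolin, binds AU-rich elements and brings the deadenylase complex to short-lived mRNAs. It had signals of 7.59, 8.42 and 7.82 in Sox9 KO cells and 8.80, 8.54 and 8.82 in WT cells. It had the smallest p of the 10 genes, and its lowest WT array lay 0.12 above its highest Sox9 KO array. The difference was -0.78 (SE 0.22, 95% interval -1.29 to -0.26), or 1.71-fold lower (adjusted p 0.367 in limma). Zfp36 was above the bar on 2 of 3 Sox9 KO arrays and on 3 of 3 WT arrays.

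Within the ZFP36 family and the deadenylation machinery, 7 of 10 genes measured lay lower and 3 higher, at a median of -0.11 (-0.21 without Sox9 KO replicate 1) and 0 past the adjusted threshold. Zfp36l2, a paralogue of Zfp36, read 8.60, 8.92 and 8.36 in Sox9 KO cells and 9.01, 9.25 and 9.43 in WT cells (difference -0.60, SE 0.19, adjusted p 0.395 in limma). It too did not overlap between groups. Elavl1, which binds AU-rich elements and stabilises the mRNA, differed by -0.15 (SE 0.12), and the deadenylase Cnot8 by 0.40 (SE 0.33).

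The mRNAs known to be bound by ZFP36 were mostly cytokines, and several were near background. Of 10 measured, 6 were lower and 4 higher, with a median of -0.48. On all 6 arrays 0 of them lay above the bar and 4 lay below it. Those 4 were Il10 among the lower genes and Il1b, Csf2 and Ccl3 among the higher ones. Cxcl2, a neutrophil chemokine, read 5.89, 7.16 and 8.26 in Sox9 KO cells and 8.95, 9.83 and 9.36 in WT cells (difference -2.28, SE 0.54). Tnf read 6.69, 7.94 and 7.94 in Sox9 KO cells and 8.62, 9.0 and 9.40 in WT cells (-1.48, SE 0.36). Both were above the bar on 1 of 3 Sox9 KO arrays and on 3 of 3 WT arrays. Ptgs2, the inducible cyclooxygenase, differed by -1.81 (SE 0.51) and was above the bar on 0 Sox9 KO arrays and 1 WT array. These 3 lay lower without overlap between groups, where 7.3% of all probe sets did. Csf2 lay higher without overlap, where 6.85% of all did. None of the list passed the adjusted threshold.

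Ppp1r15a (chr7:45522917-45526268), or GADD34, brings protein phosphatase 1 to the translation factor eIF2-alpha and so ends the block on translation that cell stress sets. Its signal was 7.19, 8.01 and 8.12 in Sox9 KO cells and 8.45, 8.56 and 8.62 in WT cells. The WT arrays lay close together (8.54 ± 0.09, SD, n = 3), the Sox9 KO arrays did not (7.77 ± 0.51, SD, n = 3), and the gap between the groups was 0.33. The difference was -0.77 (SE 0.24, 95% interval -1.34 to -0.20), or 1.71-fold lower (adjusted p 0.404 in limma). It was above the bar on 1 Sox9 KO array and 2 WT arrays, so part of its signal could not be told from background.

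The integrated stress response, to which Ppp1r15a belongs, was lower in 11 of 14 measured genes and higher in 3, with a median of -0.18 and 0 past the adjusted threshold. Asns, the asparagine synthetase induced by ATF4, read 11.38, 11.17 and 11.21 in Sox9 KO cells and 11.75, 11.83 and 11.73 in WT cells. Its groups were tight and far apart for their spread (difference -0.52, SE 0.13, adjusted p 0.297 in limma). Ppp1r15b, the constitutive counterpart of Ppp1r15a, differed by -0.48 (SE 0.15). Sesn2, a stress-induced regulator of mTORC1, differed by -0.38 (SE 0.15) and was below the bar on all arrays.

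**Figure D2:**
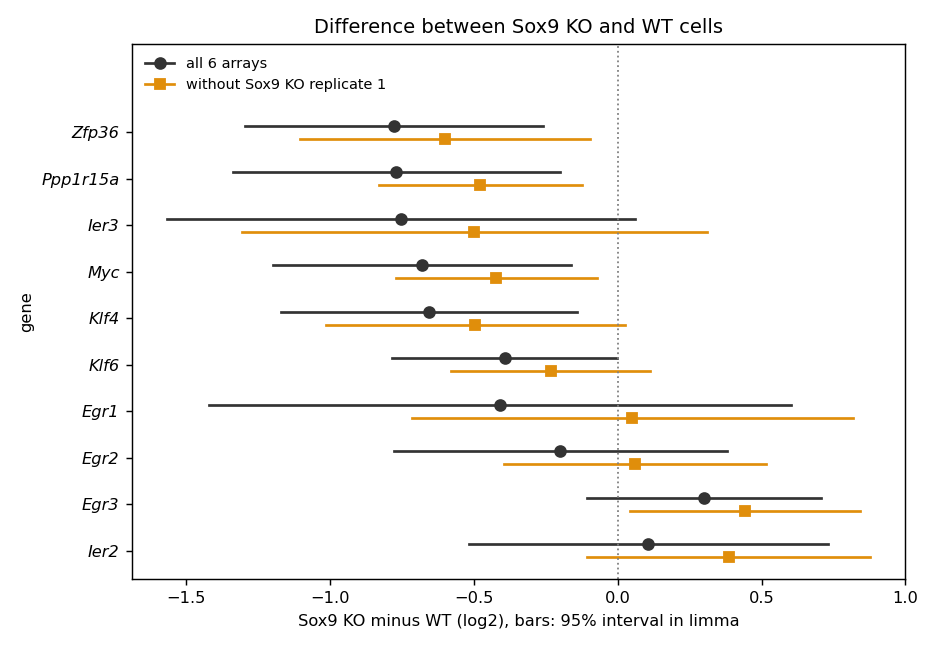
Difference between Sox9 KO and WT cells in log2 signal for each of the 10 genes, with the 95% interval in limma, over all 6 arrays (dark circles) and without Sox9 KO replicate 1 (orange squares). Zfp36, Ppp1r15a, Ier3, Myc, Klf4 and Klf6 lie left of 0 in both, while Egr1 and Egr2 lie at -0.41 and -0.20 over all arrays and at 0.05 and 0.06 without that array.

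The SD between animals was larger in Sox9 KO than in WT cells for all 10 genes, and 1 Sox9 KO array stood lowest. Against the mean of the WT arrays, their median was -1.05, -0.28 and -0.13 on Sox9 KO replicates 1, 2 and 3, against 0.00, -0.09 and 0.09 on WT replicates 1, 2 and 3. Sox9 KO replicate 1 was the lowest Sox9 KO array for 10 of 10 genes and the lowest of all 6 arrays for 9, the exception being Egr3. The WT arrays shared no such order, since replicate 2 was the lowest of them for Egr1, Egr2, Egr3, Ier2 and Zfp36, replicate 1 for Ier3, Klf4, Myc and Ppp1r15a, and replicate 3 for Klf6.

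Sox9 KO replicate 1 was also the array with the highest level of replication and mitosis genes. The median of the 9 measured stood at 3.75, 1.13 and 0.14 against the WT mean on Sox9 KO replicates 1, 2 and 3, and at 0.71, -0.30 and -0.44 on the WT arrays. The list was higher in 9 of 9 genes with a median difference of 1.56, which was 0.61 without that array, and 0 passed the adjusted threshold. Mcm6, a subunit of the replicative helicase, differed by 1.45 (SE 0.41), the mitotic kinase Plk1 by 1.97 (SE 0.86) and Mcm2, another helicase subunit, by 1.34 (SE 0.62). Mcm6 lay above the bar on 3 Sox9 KO and 2 WT arrays, and Mcm2 on 2 Sox9 KO and 0 WT arrays. Plk1 and every other gene of the list did so on 1 Sox9 KO array and 0 WT arrays. The part of proliferation or of that array in the immediate-early values was not tested.

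Without Sox9 KO replicate 1 the median of the 10 genes was -0.33, where that of all probe sets was 0.02. Leaving out an array cannot bring overlap to groups that had none, so the 5 genes without overlap stayed so by construction. The differences were -0.60 for Zfp36, -0.48 for Ppp1r15a and -0.42 for Myc, which kept an unadjusted p under 0.05 in limma, and -0.49 for Klf4 and -0.23 for Klf6, which did not. Egr3 (0.44) and Ier2 (0.39) then lay higher without overlap, where 12.8% of all probe sets did. The smallest adjusted p among the 10 was 0.482.

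**Figure D3:**
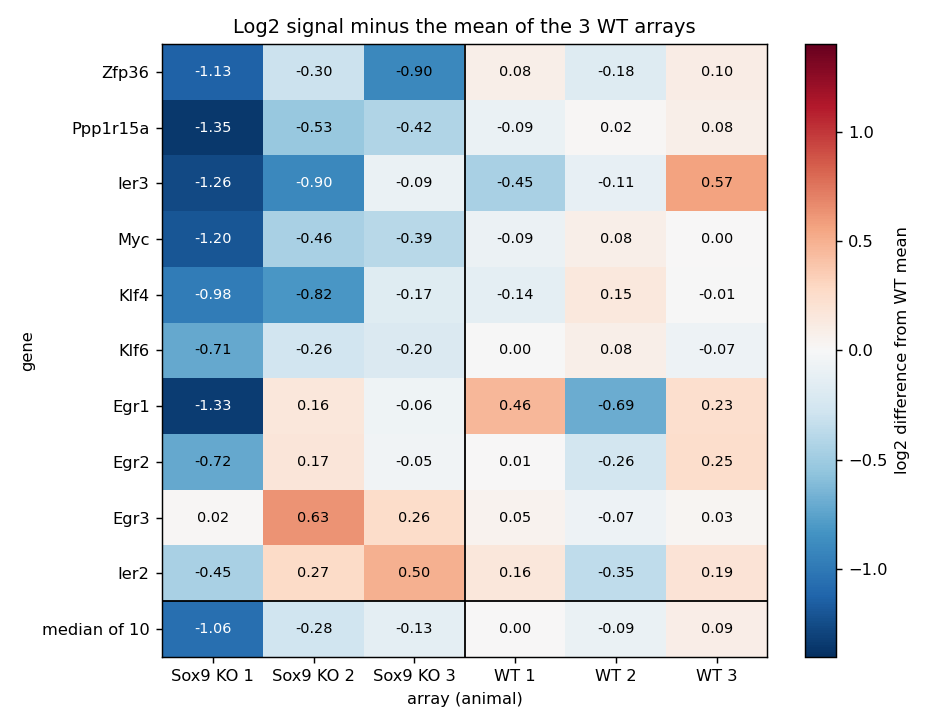
Log2 signal of each of the 10 genes on each array minus the mean of the 3 WT arrays (blue lower, red higher, value printed in each cell), with their median in the bottom row. Sox9 KO replicate 1 is the darkest column, at -1.35 for Ppp1r15a and -1.33 for Egr1. The other Sox9 KO arrays are lower than the WT mean for the upper 6 genes and not for Egr1, Egr2, Egr3 and Ier2 taken as a set.

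The genes could be split into 2 sets by whether all 3 Sox9 KO arrays lay below the WT mean. These sets were drawn after the values were seen and are described without a test. The 3 EGR genes and Ier2 had a median difference of -0.05, and their deviations from the WT mean were -0.59, 0.22 and 0.10 in the Sox9 KO animals against 0.10, -0.31 and 0.21 in the WT animals. The other 6 had a median difference of -0.72, and deviations of -1.16, -0.49 and -0.29 in the Sox9 KO animals against -0.09, 0.05 and 0.04 in the WT animals. In the first set the spread within each genotype was larger than the difference between genotypes. In the second set the medians of all 3 Sox9 KO arrays were below those of all 3 WT arrays, which follows from how the sets were drawn.

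The likeness of each gene to the mean pattern of all 10 was measured as Pearson's r over the 6 arrays, on values centred by gene and with the gene itself in the mean. It was highest for Ppp1r15a (0.955), Myc (0.933) and Klf6 (0.904), lowest for Egr3 (0.045), and between 0.617 and 0.890 for the others. Of 5422 other genes above the bar on at least 3 arrays, those most like this mean were Junb (0.991), Foxo1 (0.982), Lurap1l (0.979), Ppp1r9b (0.978) and Cx3cl1 (0.974). Junb, an AP-1 subunit and itself an immediate-early gene, read 11.41, 11.91 and 11.94 in Sox9 KO cells and 11.99, 11.92 and 12.19 in WT cells, a difference of -0.28 (SE 0.18) with overlapping groups. Cx3cl1, the chemokine fractalkine, read 8.09, 9.04 and 8.90 in Sox9 KO cells and 9.14, 9.21 and 9.49 in WT cells (-0.60, SE 0.26). In all 5 the lowest array was Sox9 KO replicate 1. With 6 arrays and this many candidates, such values describe the order of the arrays, and the one low array weighs heavily in each.

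Other immediate-early genes, 25 of 25 measured, leaned the same way, with 20 lower and 5 higher and a median of -0.35. Their median deviation from the WT mean was -0.89, -0.24 and -0.08 in the Sox9 KO animals against -0.08, 0.00 and 0.11 in the WT animals. The median was -0.12 without Sox9 KO replicate 1. The AP-1 genes Fosl1 and Fosb differed by -0.91 (SE 0.24) and -0.92 (SE 0.30), both without overlap, and Maff, a small MAF factor, differed by -1.13 (SE 0.40) but lay below the bar on all arrays. None passed the adjusted threshold. An unadjusted p under 0.05 in limma was found for 6 in the lower direction, where 4.99% of all probe sets had one, and for 0 in the higher. Without overlap 4 lay lower and 1 higher, where 7.3% and 6.85% of all probe sets did. Of the 25 genes, 6 lay below the bar on all arrays.

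Upstream, SRF and its partners gave 4 of 6 genes lower and 2 higher, with a median of -0.14. Srf, whose protein binds the CArG box, read 8.36, 9.04 and 8.64 in Sox9 KO cells and 9.09, 9.90 and 9.34 in WT cells. Its groups did not overlap (difference -0.76, SE 0.25, adjusted p 0.416 in limma). The ternary complex factors Elk4 and Elk1 differed by -0.25 (SE 0.13) and 0.13 (SE 0.14). Of the 6 genes with a promoter entry, 2 (Zfp36 and Egr2) held the letters of the CArG box, and binding of SRF there was not measured. Zfp36 was lower without overlap, and for Egr2 the groups overlapped. Egr1, Egr3, Ier2 and Myc had no entry and were not searched for it.

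Feedback genes of the ERK pathway are transcribed in response to ERK, and many but not all of those listed here restrain it. Of 11 measured, 8 were lower and 3 higher, with a median of -0.17, which was -0.06 without Sox9 KO replicate 1. Spry2, a Sprouty inhibitor of receptor tyrosine kinase signalling, read 9.61, 10.03 and 10.21 in Sox9 KO cells and 10.63, 10.33 and 10.46 in WT cells (difference -0.52, SE 0.18), and was the 1 gene of the list with an unadjusted p under 0.05. Its relatives Spred2 and Spry4 differed by -0.55 (SE 0.25) and -0.39 (SE 0.36), and Spry4 lay below the bar on all arrays. None passed the adjusted threshold.

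**Figure D4:**
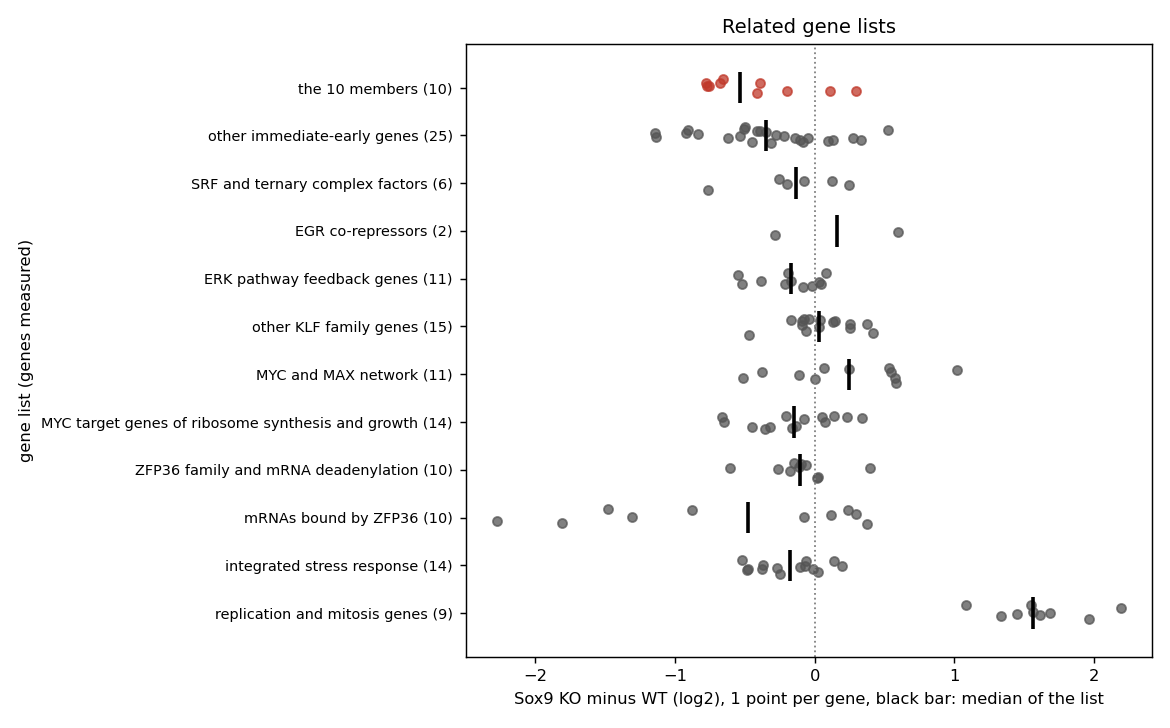
Difference between Sox9 KO and WT cells in log2 signal for every measured gene of 11 related lists and of the 10 genes (1 point per gene, black bar for the median, red for the 10 genes). The 10 genes have a median of -0.53, other immediate-early genes -0.35 and mRNAs bound by ZFP36 -0.48, while the MYC and MAX network lies at 0.24 and replication and mitosis genes at 1.56.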

How the data were processed

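RNA of sorted ER-negative luminal cells from 3 Sox9 KO and 3 WT mice was hybridised to 6 Clariom S Pico arrays. The authors processed the scans with Expression Console and the Transcriptome Analysis Console and deposited log2 signals with 2 decimals. Their normalization method is not given in the sources used here. The log2 scale was read from the range of the values. Of 28846 probe sets, 6640 array controls were left out. The platform annotation gave 1 symbol to 19572 of the 22206 tested. Probe positions are unknown here. The table held no detection calls, so 5222 negative controls gave the background bar.

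Groups came from the sample labels. Sox9 KO was tested against WT by a two-sided moderated fit without covariates (lmFit then eBayes of limma 3.58.1, R 4.3.3), with Benjamini-Hochberg adjustment over all 22206 probe sets. Differences run Sox9 KO minus WT, and the SE and 95% intervals are those of this fit. Each animal gave 1 array, and the number of arrays limits the precision. The fit was tested on simulated data first.

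Members and lists were chosen with earlier results of these data known, so lists are described by counts and medians, with no test. Named were the 10 genes, Sox9, up to 3 genes of each list with the smallest p, and the 5 genes most like the members. Motifs were searched in RefSeq promoters of GRCm38.p6. The fits were repeated after leaving out each array, with the methods' t-test, with the replicate number as a block, with array weights, with a robust trended variance, without the dimmest probe sets, after centring on medians, after quantile normalization, and with the mean over the probe sets of a symbol.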

Additional observations from a re-analysis of the deposited data

How the results depend on the processing

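The number of probe sets past the adjusted threshold was 2 over all arrays, 0 with the replicate number as a block, 0 with the methods' t-test, and 0 to 20 when single arrays were left out (Sox9 KO replicate 1 left out, 11; Sox9 KO replicate 2, 1; Sox9 KO replicate 3, 20; any WT array, 0). The methods' t-test gave an unadjusted p under 0.05 to 1722 probe sets, 143 of them over 2-fold, and to 1 of the 10 genes. The cause was not tested. Of 140 differences of single members under the alternatives, 136 kept their direction, and none passed the adjusted threshold in any setting. However, the block, the robust trended variance, the methods' t-test and the removal of dim probe sets leave each difference as it is. Their direction could therefore not change, and the mean over probe sets could change it for Egr3 only. Egr1 was 0.05 and Egr2 0.06 without Sox9 KO replicate 1, and Ier2 was -0.09 without Sox9 KO replicate 3 and -0.07 when WT replicate 2 was left out. When single arrays were left out, Egr1 ranged from -0.755 to 0.05, Egr2 from -0.385 to 0.06 and Ier2 from -0.09 to 0.385. The members' median lay between -0.65 and -0.33 without single arrays and was -0.52 with quantile normalization and -0.53 with the block. The number of non-overlapping members was 4 with quantile normalization. It was 5 to 7 without single arrays, both directions counted, where it cannot drop below 5. Of all probe sets, 10.2% to 15.5% were then lower without overlap and 10.5% to 13.5% higher. The 7 were 5 lower and 2 higher genes, without Sox9 KO replicate 1, where 10.6% and 12.8% of all probe sets were. Of the 10 genes, those with an unadjusted p under 0.05 and lower numbered 5 over all arrays and 2 to 6 without single arrays (6 when Sox9 KO replicate 3 was left out, where 5.99% of all probe sets were, and 5 when WT replicate 1 was, where 4.33% were), and the smallest adjusted p over all single-array fits was 0.113, for Klf4 without Sox9 KO replicate 3.

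Deviations from the group mean had correlations over probe sets of 0.12, -0.03 and 0.03 between same-numbered Sox9 KO and WT arrays. Between arrays with different numbers they ran from -0.16 to 0.14. With 3 arrays a group these values cannot show whether the numbers pair the animals, so pairing is not known here. With the replicate block 5 of the 10 genes were lower with an unadjusted p under 0.05, as were 5.15% of all probe sets. With 3 arrays a group and several members near the background bar, small differences of dim genes were not detectable here.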
